A study of Mus musculus with 9 samples.

Results

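The acyl-CoA thioesterase (Acot) genes were followed in liver RNA-seq of mice fed a high-fat diet (HFD). The table of 33211 genes was searched by gene symbol, and 10 Acot genes make up the family described here: the chromosome 12 paralogs Acot1, Acot2, Acot3, Acot4, Acot5 and Acot6, and the 4 members Acot8, Acot9, Acot12 and Acot13, which lie elsewhere in the genome. The family was chosen by the difference in liver RNA level between these same libraries, HFDfri against HFDfre, in which members such as Acot3 were known to stand out. The differences of its members between the groups are therefore given as a description. Members past the threshold of the fit over all genes are counted, but those counts are not read as a test of the family. All animals were wild-type male mice, C57BL/6 in the labels and C57BL6/J in the methods of the study, 8 weeks old at the start and fed for 7 weeks on the same HFD, which was kept in a freezer at -20 degrees C (HFDfre, n = 5) or in a fridge at 4 degrees C (HFDfri, n = 4). The question is how the storage of the diet relates to the RNA of these enzymes in the liver. The labels do not say more of how the samples relate, so p-values measure only the spread between these samples.

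Acyl-CoA thioesterases split an acyl-CoA into a free fatty acid and coenzyme A, which reverses the step that acyl-CoA synthetases catalyse. The enzymes differ in where they work: ACOT1 is cytosolic, ACOT2 is mitochondrial, and several other products of the chromosome 12 genes are peroxisomal. In the liver the chromosome 12 genes are known as targets of PPARA, the nuclear receptor that senses fatty acids and is activated by fasting and by fibrate drugs. ACOT8 is a peroxisomal enzyme of broad specificity, ACOT9 is mitochondrial, ACOT12 is a cytosolic acetyl-CoA hydrolase, and ACOT13, also called THEM2, prefers long-chain acyl-CoA.

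The 6 paralogs lie head to tail on the forward strand of chromosome 12 in the order Acot2, Acot1, Acot4, Acot3, Acot5 and Acot6, from chr12:83987861-83993873 (Acot2) to chr12:84100654-84111349 (Acot6) of GRCm38 in the GENCODE M21 annotation. Acot1 lies at chr12:84009490-84018371, Acot4 at chr12:84038379-84048601, Acot3 at chr12:84052144-84060402 and Acot5 at chr12:84069325-84076020. The other members are Acot8 at chr2:164792765-164804882 on the reverse strand, Acot9 at chrX:155262443-155297654 on the forward strand, Acot12 at chr13:91741512-91786148 on the forward strand and Acot13 at chr13:24817948-24831540 on the reverse strand.

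The coding sequences of the chromosome 12 members are alike, which bears on how reads could be shared among them. In alignments of each pair, Acot1 and Acot2 were identical at 95.55% of the 1236 coding bases aligned without a gap, with an unbroken shared run of 273 bases. Counted the same way, Acot3 was identical to Acot5 at 85.8%, to Acot1 at 84.0% and to its neighbour Acot4 at 75.3%. In an alignment of all 6, 1227 columns held no gap, of which 715 were identical in every member and 55 had a base found only in Acot3. The stretch below is the 60-base part of that alignment where bases found only in Acot3 were densest, 15 of them. It is shown because Acot3 is the member with the largest difference between the groups. Capitals in the Acot3 line mark bases found in no other member, and capitals in the other lines mark bases that differ from Acot3. The sequences are coding bases of GENCODE M21 transcripts, written 5′ to 3′.
Acot3: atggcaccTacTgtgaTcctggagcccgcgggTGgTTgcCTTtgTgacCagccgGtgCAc
Acot1: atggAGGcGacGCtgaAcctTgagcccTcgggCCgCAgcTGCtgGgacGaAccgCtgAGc
Acot2: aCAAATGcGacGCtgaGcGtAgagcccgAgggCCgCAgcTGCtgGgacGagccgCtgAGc
Acot4: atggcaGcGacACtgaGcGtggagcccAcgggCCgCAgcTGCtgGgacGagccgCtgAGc
Acot5: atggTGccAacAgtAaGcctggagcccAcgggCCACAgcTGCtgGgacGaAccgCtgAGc
Acot6: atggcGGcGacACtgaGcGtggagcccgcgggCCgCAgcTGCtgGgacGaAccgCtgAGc

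Of all 150-base windows of the transcript, 150 bases being the read length, 12.4% of Acot1, 10.2% of Acot2, 3.36% of Acot5, 0.309% of Acot6 and 0% of Acot4 were also found in another annotated gene. For Acot3 the share was 11.3% of its windows, made up of 2.74% found in another member and the rest in Gm49366, an annotated protein-coding gene on the same strand (chr12:84038935-84058613) that runs across Acot4 and Acot3 and has no entry in the table. No such window of Acot8, Acot9, Acot12 or Acot13 occurred in another gene. Gm49366 overlaps Acot3, so the windows shared with it can be the same genomic bases, where the gene and not the place is open. A read from a window shared with another member cannot be placed by its own sequence alone. The reads were paired in the methods of the study, so a mate outside the window can place some of them. How many stayed without a place was not tested. The split among Acot1, Acot2 and Acot3 is therefore less certain than their sum. For Acot3, 2.74% of windows bear on that split, against 12.4% for Acot1 and 10.2% for Acot2. The antisense gene 4732463B04Rik also overlaps Acot4 and Acot3, and Snx21 overlaps Acot8 on the opposite strand. Whether the counting used strand is not given in the sources used here.

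Library totals ran from 58614917 to 69353439 counts. The summed level of 7 hepatocyte markers was 96715 to 102655 CPM (counts per 1000000 counts of a TMM-scaled library) in HFDfre and 84834 to 112711 in HFDfri, so the labelled tissue was marked strongly in every library. Summed markers of other cells overlapped between the groups: Kupffer cells at 47.0 to 108 CPM in HFDfre and 55.1 to 72.9 in HFDfri, stellate cells at 91.9 to 146 and 75.5 to 135, endothelial cells at 58.2 to 71.4 and 50.3 to 77.6, cholangiocytes at 3.81 to 6.55 and 4.62 to 8.35, lymphocytes at 3.76 to 8.27 and 3.60 to 4.58, and erythroid cells at 379 to 538 and 183 to 795. Adipocyte markers summed to 13.3 to 49.97 CPM and 8.42 to 28.8 CPM, with Adipoq and Plin1 at 0 in every library. Kidney and heart markers, of tissues rich in chromosome 12 members, summed to 0.140 to 0.424 CPM in HFDfre and 0 to 0.132 CPM in HFDfri, with Slc34a1 and Myh6 at 0, and these near-0 ranges did not overlap. Of the 35 fitted genes of these 9 marker lists, 0 passed an adjusted p of 0.05 in the edgeR quasi-likelihood test, where 1.05% of all genes fitted did. At an unadjusted p under 0.05 by edgeR there were 7, where 21.2% of all genes were. DESeq2 called 4, of which 3 were hepatocyte markers and 1 a cholangiocyte marker, where it called 9.8% of the genes to which it gave an adjusted p. The part of these cells in the differences of the members was not tested. The share of a ribosomal RNA-like transcript (Gm26924) ran from 1.2 to 11.1% of counts in HFDfre and from 0.466 to 5.21% in HFDfri, and that of mitochondrial transcripts from 11.4 to 19.8% and from 8.93 to 13.6%. In bulk tissue, fewer cells of a type and less RNA per cell cannot be told apart.

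Counted per kilobase of exon, so that genes can be set side by side, the family in this liver was led by Acot13 and Acot12. Averaged over the 9 libraries, the level was 61.9 CPM per kilobase for Acot13, 25.8 for Acot12, 6.94 for Acot1, 6.66 for Acot8, 5.33 for Acot3, 3.77 for Acot2, 2.92 for Acot4, 0.75 for Acot9, 0.116 for Acot6 and 0.0045 for Acot5. The order from Acot1 to Acot3 did not exceed the spread: in HFDfre, the level per kilobase was 7.23 ± 2.28 (SD, n = 5) for Acot1, 7.01 ± 1.41 for Acot8 and 8.37 ± 3.61 for Acot3. In HFDfri, Acot1 (6.59 ± 1.72, SD, n = 4) and Acot8 (6.22 ± 0.386) again lay within each other's spread, while Acot3, at 1.53 ± 0.551, was below both. Acot13 alone made up 56.6 ± 5.66% of the summed member level per kilobase in HFDfre and 50.6 ± 5.70% in HFDfri. The chromosome 12 members made up 18.4 ± 4.85% in HFDfre, from 15.2 to 26.9%, and 13.4 ± 2.89% in HFDfri, from 10.6 to 16.6%, so that share overlapped between the groups.

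**Figure D1:**
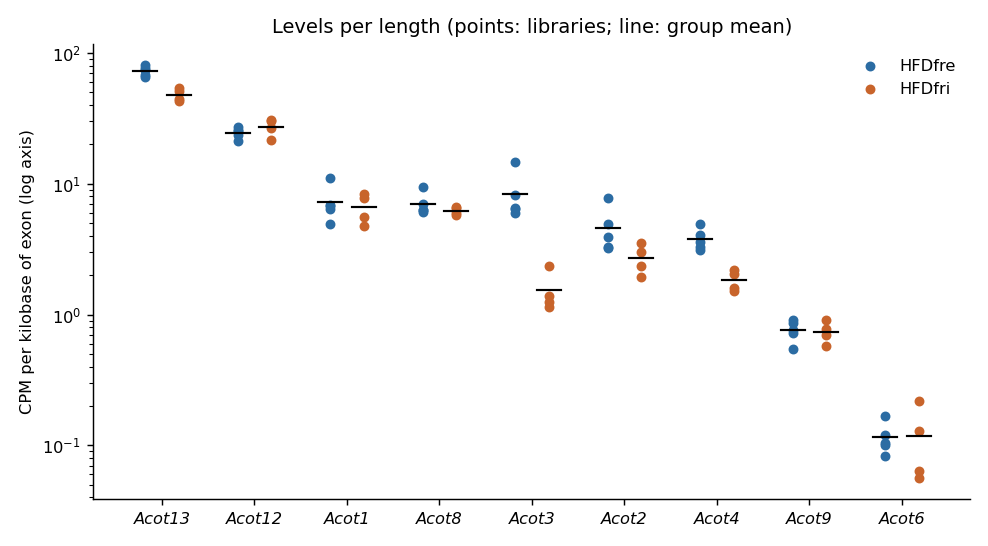
Level of the 9 fitted Acot genes in CPM per kilobase of exon on a log axis, with a point for each library and a line at the mean of HFDfre (n = 5) and HFDfri (n = 4). Acot13 and Acot12 lie at the top with means over all libraries of 61.9 and 25.8, and Acot3 is the member whose groups stand farthest apart, at 8.37 and 1.53.

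Between the groups, the members of the chromosome 12 cluster did not move as a block: Acot3 and Acot4 were lower in HFDfri with no overlap, Acot2 was lower on average with overlap, and Acot1 and Acot6 were close to level. Among the others, Acot13 was lower with no overlap, and Acot8, Acot9 and Acot12 overlapped. Of the 10 members, 9 had counts high enough for the fit. Of these, 3 (Acot3, Acot4 and Acot13) were past the adjusted threshold in the lower direction and 0 in the higher direction, where 0.556% and 0.499% of the 14220 genes fitted were. The rule that picked the family used this contrast, so nothing is read from that count. In both directions, 150 genes (1.05%) passed, and DESeq2 called 9.8% of the genes to which it gave an adjusted p. A negative log2 fold change was found in 7 of the 9, against 50.9% of all genes fitted. The groups did not overlap in 3 members, all lower in HFDfri, against 3.66% of genes in that direction, 4.02% with HFDfri higher and 7.69% in both. With library totals in place of TMM, 72.4% of the genes past the threshold were higher in HFDfri, against 47.3% here.

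Acot3, which encodes a peroxisomal thioesterase of long-chain acyl-CoA, had the widest gap of the family. Its level was 22.5, 22.1, 20.7, 50.4 and 28.2 CPM in HFDfre replicates 1 to 5 and 4.29, 4.77, 8.05 and 3.92 CPM in HFDfri replicates 1 to 4. The lowest HFDfre library stood well above the highest HFDfri library, and HFDfre replicate 4 was by far the highest of its group. The means were 28.8 ± 12.4 CPM (SD, n = 5) and 5.26 ± 1.89 CPM (SD, n = 4). The log2 fold change was -2.45 ± 0.30 (SE), which is 5.46-fold lower in HFDfri. Of the 14220 genes fitted, 21 had a lower log2 fold change. Without HFDfre replicate 4 the log2 fold change was -2.15, and in the 5 libraries with a ribosomal RNA-like share under 3% it was -2.50.

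Acot4, the peroxisomal enzyme known for succinyl-CoA and other dicarboxylic acyl-CoAs, lies directly upstream of Acot3. It was at 23.9, 20.6, 22.04, 32.6 and 27.1 CPM in HFDfre and 13.6, 10.04, 14.6 and 10.6 CPM in HFDfri. Its groups did not overlap either, but its gap was narrower than that of Acot3. The means were 25.3 ± 4.77 and 12.2 ± 2.24 CPM, with a log2 fold change of -1.05 ± 0.16 (SE), or 2.07-fold lower. That value ran from -1.15 to -0.94 when single libraries were left out and was -1.11 in the 5 libraries of low ribosomal RNA-like share.

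Acot2, the mitochondrial matrix enzyme, and Acot1, its cytosolic counterpart, are the closest pair in sequence. Acot2 was at 7.24, 7.05, 8.57, 17.1 and 10.8 CPM in HFDfre and 5.18, 4.26, 6.57 and 7.80 CPM in HFDfri. HFDfri replicate 4 lay above the 2 lowest HFDfre libraries, so the groups overlapped. The log2 fold change of Acot2 was -0.77 ± 0.27 (SE), and -0.50 without HFDfre replicate 4. Acot1 was at 25.1, 27.1, 19.5, 43.3 and 26.6 CPM in HFDfre and 18.5, 21.8, 32.5 and 30.5 CPM in HFDfri. These ranges lay over one another except for HFDfre replicate 4, the highest library. The log2 fold change of Acot1 was -0.13 ± 0.22 (SE), and 0.07 without HFDfre replicate 4.

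Acot6, at the far end of the cluster, was low, at 0.770, 0.529, 0.642, 1.08 and 0.672 CPM in HFDfre and 1.41, 0.36, 0.828 and 0.411 CPM in HFDfri. The highest and the lowest library of all were both in HFDfri. Its log2 fold change of 0.02 ± 0.42 (SE) became -0.48 without HFDfri replicate 1 and 0.25 without HFDfri replicate 2. Acot5 had 0 counts in 8 libraries and 4 counts in HFDfre replicate 3, and did not pass the filter. Taken as a read count, 0 allows up to 3 counts, or 0.0407 to 0.0578 CPM depending on the library, so a difference in Acot5 was not detectable at this depth. The values are estimated counts, and low values were uneven: 3990 gene and library pairs had the value 4, against 2172 with 3 and 1840 with 5. That bound is therefore approximate.

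**Figure D2:**
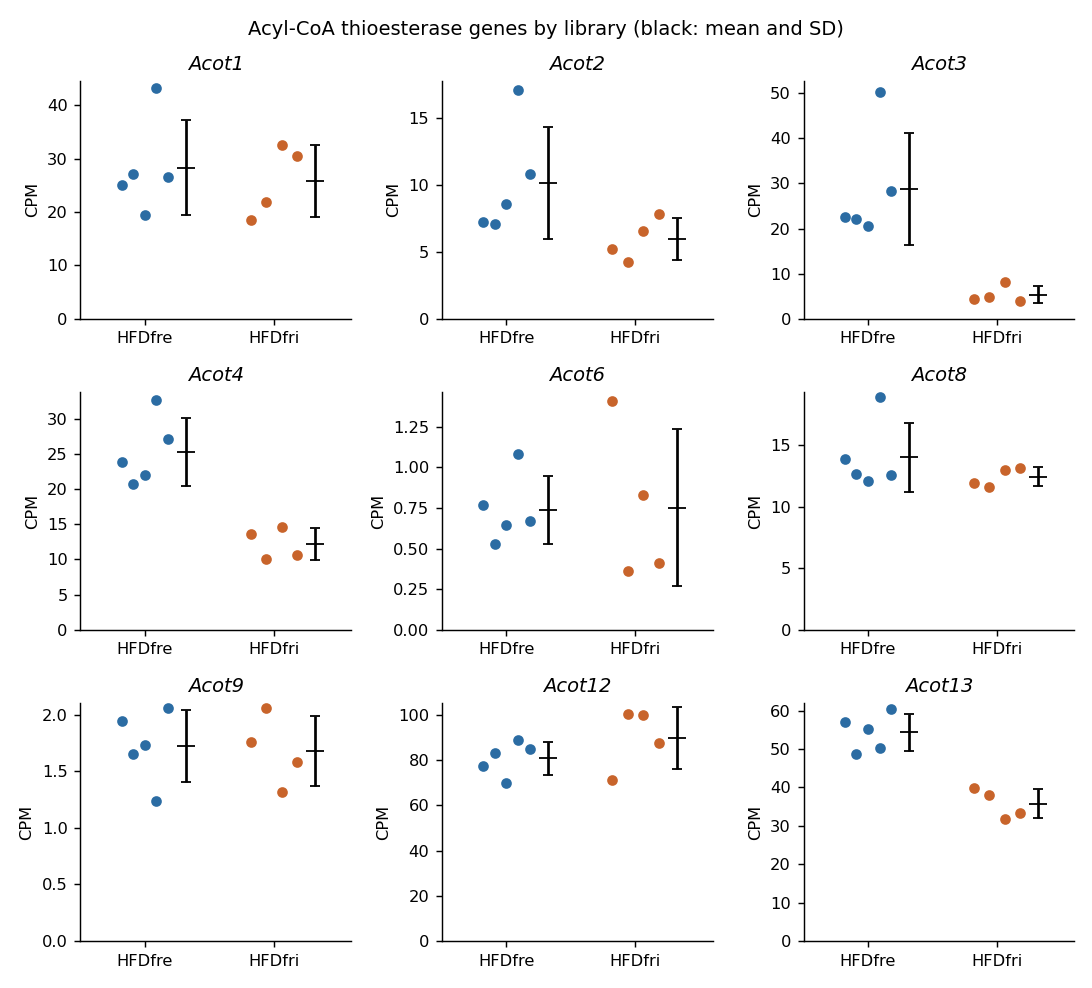
CPM of the 9 fitted Acot genes in each library, HFDfre (n = 5) and HFDfri (n = 4), with the group mean and SD as black lines. Acot3, Acot4 and Acot13 show no overlap between the groups, and HFDfre replicate 4 is the highest point for Acot1, Acot2, Acot3, Acot4 and Acot8.

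Of the members outside the cluster, Acot13 was at 56.9, 48.7, 55.1, 50.4 and 60.5 CPM in HFDfre and 40.0, 37.9, 31.9 and 33.3 CPM in HFDfri. Every HFDfri library was below every HFDfre library, and the spread within each group was small. The means of 54.3 ± 4.82 and 35.8 ± 3.79 CPM gave a log2 fold change of -0.60 ± 0.10 (SE), or 1.52-fold lower. In contrast to the cluster, HFDfre replicate 4 was among the lower HFDfre libraries for Acot13. Acot12, which hydrolyses acetyl-CoA, was at 77.4, 83.3, 69.96, 89.0 and 84.9 CPM in HFDfre and 71.4, 100.5, 99.999 and 87.7 CPM in HFDfri, with a log2 fold change of 0.15 ± 0.11 (SE). The groups overlapped, although the 2 highest libraries were both in HFDfri. With the mitochondrial share as a covariate, the log2 fold change of Acot12 was -0.12.

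Acot8 was at 13.9, 12.6, 12.1, 18.9 and 12.5 CPM in HFDfre and 11.9, 11.6, 13.0 and 13.1 CPM in HFDfri, with a log2 fold change of -0.17 ± 0.14 (SE), or -0.04 without HFDfre replicate 4. Apart from that library, the groups lay on top of each other. Acot9 was low throughout, at 1.72 ± 0.318 CPM in HFDfre (1.24 to 2.06) and 1.68 ± 0.313 CPM in HFDfri (1.32 to 2.06). Its log2 fold change, -0.04 ± 0.22 (SE), turned to 0.03 under scaling by library totals.

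**Figure D3:**
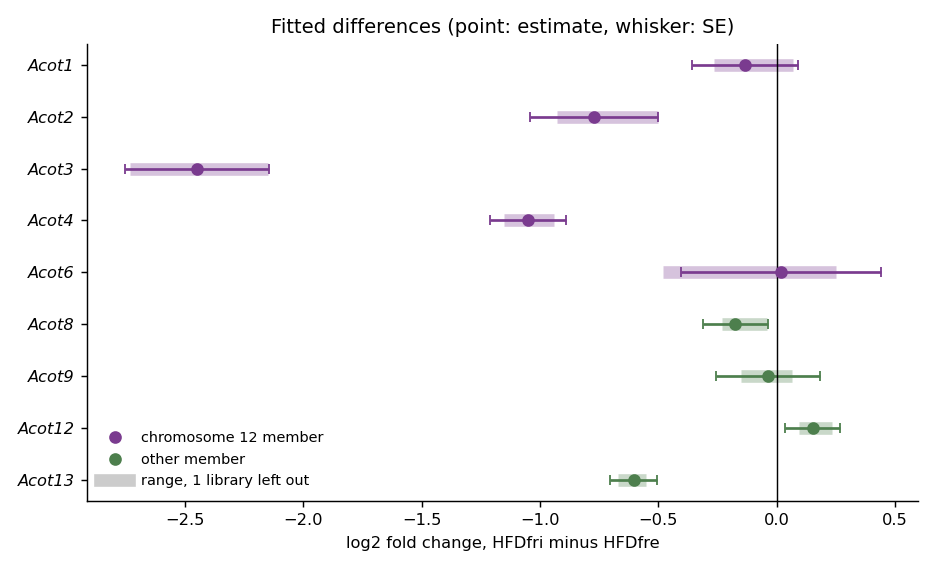
Log2 fold change, HFDfri minus HFDfre, of the 9 fitted members, with standard errors as bars, and shaded ranges over the fits that left out 1 library. Acot3 (-2.45), Acot4 (-1.05), Acot2 (-0.77) and Acot13 (-0.60) lie lowest, and the others lie within 0.2 of 0.

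The median log2 fold change was -0.77 over the 5 fitted chromosome 12 members and -0.11 over the 4 others, beside -0.0068 over all genes fitted. With counts of Acot1 to Acot6 summed to 1 feature, which does not depend on how reads were split among the paralogs, the cluster was at 93.3 ± 29.8 CPM in HFDfre, from 71.4 to 145, and 50.0 ± 9.91 CPM in HFDfri, from 41.2 to 62.6. The groups did not overlap, and the log2 fold change of the sum was -0.90 ± 0.21 (SE). With the mitochondrial share as a covariate, the log2 fold change of the sum was -1.40, that of Acot3 was -3.09 and that of Acot1 was -0.79. The part of that share in the differences was not tested beyond this fit.

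**Figure D4:**
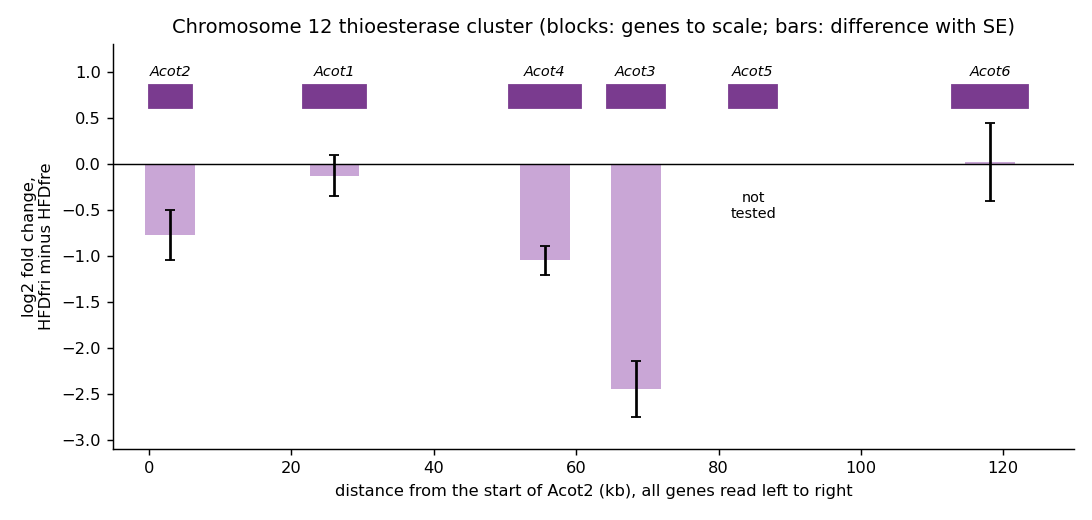
The chromosome 12 cluster drawn to scale by distance from the start of Acot2 in kilobases, with the log2 fold change of each fitted member (bars, standard error as lines) at its place. Acot3 (-2.45) and its upstream neighbour Acot4 (-1.05) are the lowest, and Acot1 (-0.13) and Acot6 (0.02) lie near 0.

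The make-up of the cluster differed accordingly. Acot3 gave 30.2 ± 2.73% of the chromosome 12 member counts in HFDfre, from 28.3 to 34.9%, and 10.4 ± 2.37% in HFDfri, from 7.36 to 12.9%. Acot1 gave 30.5 ± 3.02% in HFDfre, from 27.2 to 35.0%, and 51.3 ± 5.95% in HFDfri, from 43.1 to 57.3%. Both shares separated the groups with no overlap, whereas that of Acot4 did not, at 27.8 ± 3.34% and 24.8 ± 4.90%. The ratio of Acot3 to Acot4 counts was 1.11 ± 0.252 in HFDfre and 0.428 ± 0.105 in HFDfri, so Acot3 was lower also relative to its neighbour. These ratios are taken within a library, so the scaling between libraries does not enter them. HFDfre replicate 4, high in CPM for most of the cluster, also had the highest Acot3 share, 34.9%.

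**Figure D5:**
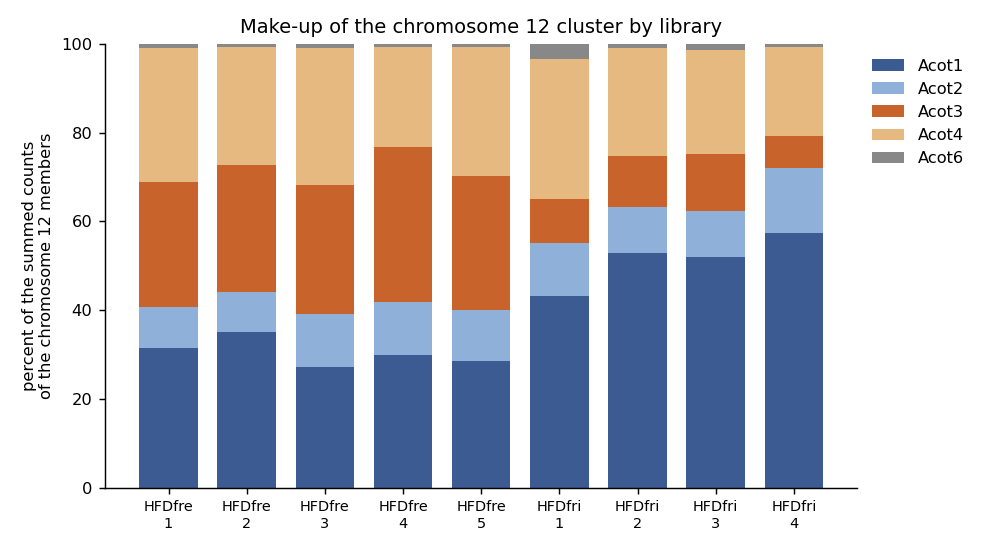
Percent of the summed Acot1 to Acot6 counts given by each member in each library, as stacked bars from 0 to 100%. Acot5, with 4 counts in 1 library, is not drawn. Acot3 takes 28.3 to 34.9% in HFDfre and 7.36 to 12.9% in HFDfri, and Acot1 takes 27.2 to 35.0% and 43.1 to 57.3%.

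Covariation within the groups does not use the difference between them. After the group mean was taken from log2 CPM, all 10 pairs of fitted chromosome 12 members had a positive Pearson r across the 9 libraries, with a median of 0.67, against a median of -0.15 in the other 26 pairs, of which 12 were positive. With library totals in place of TMM the medians were 0.70 and 0.14, with 10 and 16 pairs positive, so the sign of the second median rests on the scaling. Without the 2 libraries farthest from the median of the first member of each pair they were 0.45 and 0.15, with 8 and 16 pairs positive, and 2 pairs with Acot6 on chromosome 12 were then negative (-0.35 with Acot1 and -0.02 with Acot3). Positive r was not confined to the cluster. Acot8, on chromosome 2, had r = 0.84 with Acot1, 0.79 with Acot2, 0.75 with Acot3, 0.64 with Acot4 and 0.36 with Acot6. Without 2 libraries as above, these ran from -0.26 to 0.61. Acot9 had a negative r with each fitted chromosome 12 member, from -0.75 to -0.38. With 2 libraries left out as above, its r turned positive with Acot3 (0.84) and Acot4 (0.30). It stayed negative with Acot1, Acot2 and Acot6, from -0.71 to -0.38. The pairs share the libraries and their scaling. Acot1, Acot2 and Acot3 also share read-length windows, and the part of these in r was not tested. Over the 36 pairs, exact permutation within groups (2880 arrangements, two-sided) left 0 past a Benjamini-Hochberg adjusted p of 0.05, with 10 at an unadjusted p under 0.05. Acot3 and Acot4 had r = 0.82 (exact permutation p = 0.0101, adjusted 0.169) and rho = 0.70 (exact permutation p = 0.0597, adjusted 0.224). Without HFDfre replicate 4 and HFDfri replicate 3, their r was 0.42, so that relation rests largely on these libraries. Among 10122 genes compared over the 9 libraries in this way, those most like Acot3 were led by Hadhb, a subunit of the mitochondrial trifunctional protein, with r = 0.97. Rxrb and Thop1 followed with r = 0.96 each, then Fmo2 and Ecd with r = 0.94 each. Between the groups, the log2 fold change was 0.26 for Hadhb, 0.18 for Rxrb, 0.48 for Thop1, -0.50 for Fmo2 and 0.25 for Ecd, beside -2.45 for Acot3. Their r without HFDfre replicate 4 is not given here. Acot4 came 121st in the order by r. Those most like Acot1 were led by Timm23, a subunit of the mitochondrial import channel, with r = 0.985, and Cops7a with r = 0.98. These correlations are descriptions over 9 libraries.

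The 250 bases before the annotated start of 8 members, from RefSeq on GRCm38.p6, were searched for the DR1 element, 2 direct copies of AGGTCA spaced by 1 base, the type bound by PPARA with RXR and by HNF4A, on both strands and with up to 2 mismatches at its fixed bases. No window was matched for Acot6 and Acot13. A match was found for Acot4 (2 mismatches, 13 to 1 bases before the start, reverse strand) and for Acot12 (1 mismatch, 110 to 98 bases before the start, reverse strand), and none for Acot1, Acot2, Acot3, Acot5, Acot8 or Acot9. Of 32851 windows of this length in the reference, 3.24% held a match with up to 2 mismatches and 0.484% with up to 1. A match is a description of letters and not of binding. The windows of Acot3, with none, and of Acot4 and Acot12, with the match in capitals, are shown because they belong to the neighbours Acot3 and Acot4 and to the member with the closer match. They lie at chr12:84051894-84052143, chr12:84038129-84038378 and chr13:91741271-91741520 on the forward strand.
Acot3: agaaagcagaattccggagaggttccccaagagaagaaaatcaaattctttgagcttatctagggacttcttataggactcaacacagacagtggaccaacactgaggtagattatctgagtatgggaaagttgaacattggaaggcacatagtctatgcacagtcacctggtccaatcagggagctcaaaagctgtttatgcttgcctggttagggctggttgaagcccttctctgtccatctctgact
Acot4: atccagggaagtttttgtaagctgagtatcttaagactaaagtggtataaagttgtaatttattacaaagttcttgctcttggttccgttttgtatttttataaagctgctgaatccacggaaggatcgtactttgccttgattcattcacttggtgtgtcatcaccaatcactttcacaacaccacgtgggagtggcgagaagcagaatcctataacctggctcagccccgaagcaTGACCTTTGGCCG
Acot12: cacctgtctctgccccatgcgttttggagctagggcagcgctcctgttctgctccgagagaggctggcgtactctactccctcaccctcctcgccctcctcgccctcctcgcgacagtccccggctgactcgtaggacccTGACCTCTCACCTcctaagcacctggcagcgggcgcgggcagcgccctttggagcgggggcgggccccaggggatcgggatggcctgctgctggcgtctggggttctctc

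The wider pathway was read from 6 lists of genes around the thioesterases, in the same fit over all genes. Known PPARA targets of fatty acid handling had 38 of 39 listed genes fitted, of which 3 fell past the adjusted threshold and 0 rose, where 0.556% of all genes fitted were lower and 0.499% higher. At an unadjusted p under 0.05 by edgeR, 10 were lower and 3 higher, where 9.79% and 11.4% of all genes were, and DESeq2, with 9.8% of its genes called in both directions, called 6 lower and 1 higher. The median log2 fold change was -0.08, beside -0.0068 over all genes. The 3 were Cyp4a14, at -1.63 ± 0.33 on the log2 scale (SE, edgeR adjusted p = 0.0425), Cyp4a10, with -0.86 ± 0.17 (adjusted p = 0.0396), both fatty acid omega-hydroxylases, and Abcd2, a peroxisomal transporter of very long-chain acyl-CoA, with -0.83 ± 0.15 (adjusted p = 0.0354). Cyp4a14 was at 213.8, 389, 331, 730 and 435 CPM in HFDfre and 126, 109, 209 and 96.8 CPM in HFDfri. As for Acot3, HFDfre replicate 4 was highest and HFDfri replicate 3 was the highest of its group. Cd36, a fatty acid transporter, was at 56.0 ± 24.2 CPM in HFDfre and 24.3 ± 3.95 CPM in HFDfri, and its log2 fold change was -1.21 ± 0.27 with an edgeR adjusted p of 0.0566. The calls of this list depend on single libraries: Cyp4a14 passed in the fits without HFDfre replicate 1 or HFDfri replicate 1, Cyp4a10 in that without HFDfri replicate 1, and Abcd2 in those without HFDfre replicate 1, HFDfri replicate 1 or HFDfri replicate 2, and in none of the other fits that left out a library, where the highest adjusted p by edgeR was 0.0992. Their log2 fold changes stayed between -1.92 and -0.71.

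Genes of coenzyme A synthesis and breakdown had all 15 listed genes fitted, of which 1 rose and 2 fell, beside the same 0.499% and 0.556% of all genes. At an unadjusted p under 0.05 by edgeR 2 were higher and 5 lower, where 11.4% and 9.79% of all genes were. DESeq2, with 9.8% of its genes called in both directions, called 2 higher and 4 lower. Pank1, the kinase that starts coenzyme A synthesis, was at 144 ± 10.6 CPM in HFDfre and 190.1 ± 8.21 CPM in HFDfri, a log2 difference of 0.40 ± 0.08 (SE), with an edgeR adjusted p of 0.0490. Vnn3, a pantetheinase, had a log2 fold change of -0.45 ± 0.09 (adjusted p = 0.0452), and Nudt8, a mitochondrial coenzyme A hydrolase, of -0.57 ± 0.12 (adjusted p = 0.0460), both by edgeR. The peroxisomal coenzyme A hydrolase Nudt7 had 0.81 ± 0.18 and an edgeR adjusted p of 0.0520. All 3 calls were made without HFDfri replicate 1 and lost when any other library was left out, with edgeR adjusted p up to 0.139 and log2 fold changes from 0.36 to 0.43 for Pank1, -0.50 to -0.40 for Vnn3 and -0.67 to -0.51 for Nudt8. The median over the list was -0.09.

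Acyl-CoA synthetases, which make the substrates of the thioesterases, had 18 of 22 genes fitted, of which 1 rose and 0 fell, again beside 0.499% and 0.556% of all genes, with a median log2 fold change of 0.08. At an unadjusted p under 0.05 by edgeR 2 were higher and 3 lower, where 11.4% and 9.79% of all genes were. DESeq2, with 9.8% of its genes called in both directions, called 1 higher and 1 lower. Acsl4, which favours arachidonic acid, was at 19.8, 19.1, 17.9, 19.5 and 22.6 CPM in HFDfre and 33.9, 32.2, 45.2 and 34.1 CPM in HFDfri. The groups were far apart for their spread, 0.88 ± 0.11 (SE) on the log2 scale with an edgeR adjusted p of 0.0147. The call was lost without HFDfre replicate 3, where the adjusted p by edgeR was 0.0539.

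No gene passed the adjusted threshold in the other 3 lists. Of 6 fitted genes among 8 further thioesterases, 0 were higher and 1 was lower at an unadjusted p under 0.05 by edgeR (21.2% of all genes in both directions), and DESeq2 called 0. The median was -0.04. That gene was Acot11, at 9.09 ± 2.30 CPM in HFDfre and 6.02 ± 1.78 CPM in HFDfri (log2 fold change -0.59 ± 0.23, adjusted p by edgeR 0.178). Of 15 genes of peroxisome biogenesis, 1 was higher and 1 lower at that unadjusted level, with DESeq2 calling 0 and a median of -0.04. Of 13 regulators, 6 were higher and 1 lower at that level, where 11.4% and 9.79% of all genes were. DESeq2, with 9.8% of its genes called in both directions, called 3, all higher, and the median was 0.19. Ppara itself was at 21.7 ± 5.57 CPM in HFDfre and 38.5 ± 14.5 CPM in HFDfri, with a log2 fold change of 0.82 ± 0.25 and an edgeR adjusted p of 0.108, the opposite sign to that of Acot3 and Acot4. Hnf4a was at 327 ± 22.3 and 449.9 ± 57.2 CPM, with 0.46 ± 0.10 and an edgeR adjusted p of 0.0566, and its groups did not overlap. Ppara and Hnf4a were among the regulators that passed without HFDfri replicate 1, where 1106 of 14463 genes fitted did. Hnf4a also passed without HFDfri replicate 2, where 235 of 14428 did. Neither passed in any other fit that left out a library. Over the fits that left out a library, the edgeR adjusted p of Ppara ran from 0.0233 to 0.313. That of Hnf4a ran from 0.0379 to 0.168.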

How the data were processed

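Liver RNA-seq of 5 HFDfre and 4 HFDfri mice was analysed. The authors deposited 1 table of estimated counts per gene, which are whole numbers and not scaled between libraries. HISAT2, StringTie and the build mm10 are credited to the submitters' processing notes. Their versions and the annotation are not given in the sources used here. All 9 columns were matched to samples by the code in the sample title. Estimated counts were rounded, which left them unchanged. The whole table was fitted in edgeR 4.0.16 (R 4.3.3, glmQLFTest) after TMM scaling and filterByExpr, with Benjamini-Hochberg adjustment at 0.05. The study used DESeq2, run here as an alternative (version 1.42.0), as was limma-voom (limma 3.58.1). Log2 CPM for correlations had a prior count of 2. SE was derived from the log2 fold change and the root of its F statistic. Coding sequences were aligned with MAFFT and Biopython 1.88, and 96.5% of the gene identifiers were found in GENCODE M21. Scripts were tested on simulated data. In counts simulated for these groups, the edgeR fit recovered 58 of 98 genes changed by a log2 of 1. It recovered 80 of 98 changed by a log2 of 2, and 7 of its 145 calls were false.

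The members, the lists of related genes and of cell type markers, and the tests were chosen with earlier results of these data known. All 10 members are named. From each of the 6 lists of related genes, those past the threshold could be named, and up to 4 in all by the smallest p. The genes most like Acot3 and the member with the highest chromosome 12 level (Acot1) were taken from genes whose mean log2 CPM reached 1. Alternatives were other tools, scalings and filters, a replicate block, leaving out each library, and, added after seeing the data, covariates for the ribosomal RNA-like and mitochondrial shares, DESeq2 without a filter and the libraries under a ribosomal RNA-like share of 3%.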

Additional observations from a re-analysis of the deposited data

Results flagged for a closer look

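HFDfre replicate 4 stood apart from the rest of its group by Dixon's test in the CPM of Acot3, at 50.4 against 20.7 to 28.2 in the other HFDfre libraries, and in the CPM of Acot8, at 18.9 against 12.1 to 13.9. These were 2 of 40 sets of values searched (the 9 fitted members and the summed cluster, in 2 groups, as CPM and as log2 CPM), where chance would give about 2. On the log2 scale, on which the correlations were made, neither set stood apart. The edgeR fits were made on the counts and not on log2 values. Without that library the log2 fold change was -2.15 for Acot3 and -0.04 for Acot8.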

How the results depend on the processing

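Over the 20 alternatives the log2 fold change ran from -3.09 to -2.15 for Acot3, from -1.24 to -0.94 for Acot4 and from -0.67 to -0.47 for Acot13. The family was chosen on this contrast, so the counts of members past the threshold are a description and nothing is read from them. Against 3 members here, DESeq2 gave 4 (with Acot2), scaling by totals 2 (Acot3 and Acot4), the ribosomal RNA-like covariate 2 (Acot3 and Acot13), the mitochondrial covariate 1 and the libraries of low ribosomal RNA-like share 1, Acot3 in both. Leaving out single libraries gave 1 to 3: Acot3 alone without HFDfre replicate 3, HFDfre replicate 5 or HFDfri replicate 4, and Acot3 with Acot4 without HFDfre replicate 1 or HFDfri replicate 3. The cause was not tested, and leaving out libraries leaves fewer samples.

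Of all genes, 150 passed, against 1068 with DESeq2, 1042 with DESeq2 without a filter, 72 without a filter in edgeR, 76 when scaled by totals, 38 and 5 with the ribosomal RNA-like and mitochondrial covariates, 2 in the libraries of low ribosomal RNA-like share (1401 at an unadjusted p under 0.05 by edgeR), and 6 to 1106 without single libraries, the highest without HFDfri replicate 1. Of the 6 lists of related genes, 7 genes passed, against 18 with DESeq2 with or without a filter, 2 unfiltered, 2 when scaled by totals, 1 with the ribosomal RNA-like covariate, 0 with the mitochondrial covariate, 0 in the libraries of low ribosomal RNA-like share and 0 to 15 without single libraries.

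With the mitochondrial covariate the median log2 fold change was -1.24 for chromosome 12 members and -0.28 for the others, and the summed cluster was at -1.40. Without single libraries these ran from -0.93 to -0.50, from -0.15 to -0.07 and from -1.03 to -0.69. With library totals 1 correlation passed (Acot1 and Acot8, r = 0.92, exact permutation adjusted p = 0.0125), against 0.

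A replicate block in the fit left 0 genes past the threshold (2536 at an unadjusted p under 0.05 by edgeR), 0 members and 0 genes of the lists. The replicate number is the running number in the sample title. Deviations of same-numbered libraries correlated at -0.136 to 0.0813, and 2 of 4 HFDfri libraries correlated best with their own number. The codes in the titles end in the same number for HFDfre replicate 4 and HFDfri replicate 3, and for HFDfre replicate 5 and HFDfri replicate 4. What these codes mean is not given, and a pairing by them was not tested. Per kilobase of the longest transcript in place of all exons, Acot1 was at 10.4, Acot8 at 10.4, Acot9 at 0.973 and Acot6 at 0.206 CPM.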

Other observations

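The antisense gene 4732463B04Rik, which overlaps Acot4 and Acot3, had 47, 309, 99, 187 and 73 counts in HFDfre and 75, 75, 170 and 57 counts in HFDfri. The libraries of its highest counts, HFDfre replicate 2 and HFDfre replicate 4, were the second lowest and the highest of their group in the CPM of Acot3. Its counts overlapped between the groups and were below those of Acot3 in every library.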
